A study of Sus scrofa with 15 samples.

Results

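The genes described here carry fatty acids from the blood into fat cells and activate them: LPL, GPIHBP1, ANGPTL4, VLDLR, CD36, FABP4, FABP5, SLC27A1, ACSL1 and ACSL3. They were chosen by name, with earlier results of these data known, and 9 of the 10 were matched by symbol to 1 of the 30477 genes in the count files. CD36, a membrane protein that takes up long-chain fatty acids, had no matched gene identifier and was not analysed here. RNA was sequenced from backfat biopsies of growing Iberian pigs, with 5 pigs on each of 3 diets and 1 library per pig, to ask how olive by-products in the feed bear on gene expression in subcutaneous fat. Control pigs (C) ate a restricted compound feed, set at a higher share of free energy intake than the compound feeds of both other diets. DOP pigs ate a restricted compound feed that included dry olive pulp, and WCOC pigs ate a separate restricted compound feed free of by-product, along with freely offered silage made of wet crude olive cake and barley straw. Each diet was fed in a single pen and intake was not recorded per pig, so diet, pen and feeding level cannot be told apart. The pigs sequenced were those of a larger trial whose RNA was best in quantity and quality.

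Fat cells secrete lipoprotein lipase (LPL), which GPIHBP1 carries across capillary endothelium to the vessel lumen, where the enzyme releases fatty acids from the triglycerides of circulating lipoproteins. ANGPTL4 inactivates LPL, and VLDLR, a receptor for triglyceride-rich lipoproteins, aids their delivery. Inside the cell the fatty acids are bound by FABP4 and FABP5 and are joined to coenzyme A by SLC27A1, ACSL1 and ACSL3, which commits them to storage, membrane lipids or oxidation.

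Between 22373715 and 34745218 read pairs per library fell on genes, and every library held at least 313 counts of each of the 9 genes. Flow cell B held the 5 DOP libraries and control replicate 5, and flow cell A held the WCOC libraries and control replicates 1 to 4, so WCOC and DOP share no flow cell. On flow cell A, WCOC replicates 4 and 5 were on lane 8, and WCOC replicates 1 to 3 and the controls were on lane 2. Lane was not part of any fit. The summed level of 6 skeletal muscle markers was 47.2 to 3682 in C, 35.5 to 47602 in DOP and 18.9 to 705 in WCOC, in counts scaled to library size (CPM), and it was over 1000 in 5 libraries (C replicates 1 and 3, and DOP replicates 2, 4 and 5). The 6 adipocyte markers matched, among them ADIPOQ and PLIN1, summed to 9129 to 12254 CPM in C, 10913 to 14677 in DOP and 12352 to 17888 in WCOC, none of them at 0. The 12 macrophage markers, none at 0, summed to 272 to 800 CPM in C, 190 to 479 in DOP and 132 to 364 in WCOC. Of these 12, 6 were called lower in WCOC than in C (3.93% of all genes) and 1 lower in DOP than in C (0.550%). Between WCOC and DOP 1 of the 12 was called lower in WCOC (5.11% of all genes). Of 7 fibroblast and adipose progenitor markers, whose sums ranged from 13418 to 29015 CPM, 2 were called lower in WCOC than in C (3.93% of all genes). Against DOP, 2 of the 7 were called lower in WCOC (5.11%). Markers of T cells (sums of 3.34 to 21.8 CPM), B cells (0.726 to 11.6 CPM, with CD79A at 0) and keratinocytes (2.06 to 144.9 CPM) were low. The highest keratinocyte sums were those of WCOC replicate 5 (144.9 CPM) and C replicate 3 (44.7 CPM). Of 5 keratinocyte markers tested, 2 were called higher in WCOC than in DOP (2.65% of all genes).

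In the Sscrofa11.1 assembly the RefSeq annotation places LPL (ENSSSCG00000040631) on the plus strand of chromosome 14 from 4104761 to 4134964, with 10 exons. GPIHBP1 (ENSSSCG00000034689) has 4 exons on the minus strand of chromosome 4 from 1253401 to 1256921. ANGPTL4 (ENSSSCG00000013599) has 7 exons on the minus strand of chromosome 2 from 70905767 to 70912892, and VLDLR (ENSSSCG00000005229) has 18 on the minus strand of chromosome 1 from 219178501 to 219210332. FABP4 (ENSSSCG00000040681) and FABP5 (ENSSSCG00000006153) are both on chromosome 4, each with 4 exons, FABP4 on the plus strand from 55096400 to 55101209 and FABP5 on the minus strand from 55277831 to 55282585. SLC27A1 (ENSSSCG00000013879), with 13 exons, lies on the minus strand of chromosome 2 from 60203374 to 60235689. ACSL1 (ENSSSCG00000015784; 21 exons, minus strand, 45866858 to 45936327) and ACSL3 (ENSSSCG00000016223; 16 exons, plus strand, 124741986 to 124816955) are both on chromosome 15. RefSeq shows 0 genes overlapping any of the 9, and the counts are per gene, so exons and transcript variants are not separated.

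The 250 bases upstream of the annotated gene start are shown for GPIHBP1, ANGPTL4 and ACSL1, the genes called in at least one comparison. They were read from the RefSeq Sscrofa11.1 sequence, 5′ to 3′ on the strand of the gene, and cover chr4:1256922-1257171 (minus strand, GPIHBP1), chr2:70912893-70913142 (minus, ANGPTL4) and chr15:45936328-45936577 (minus, ACSL1). Capitals mark every match, on either strand, to any of 6 short motifs of known factors. The box that TATA-binding protein reads was searched as TATAAA, and the octamer of the Oct factors was searched as ATTTGCAT. The box of the trimeric factor NF-Y was searched as CCAAT, and the box of Sp1 and its relatives was searched as GGGCGG. The site of a single nuclear receptor was searched as AGGTCA, and the paired site of the PPAR receptors with their RXR partner was searched as its direct repeat with any base at the fourth position and 1 free base between the copies, so these last searches can overlap.
GPIHBP1: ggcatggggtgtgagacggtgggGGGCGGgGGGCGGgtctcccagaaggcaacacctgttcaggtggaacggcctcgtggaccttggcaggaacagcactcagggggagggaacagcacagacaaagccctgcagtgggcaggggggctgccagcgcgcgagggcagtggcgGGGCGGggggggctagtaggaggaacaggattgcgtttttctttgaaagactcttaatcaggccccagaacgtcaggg
ANGPTL4: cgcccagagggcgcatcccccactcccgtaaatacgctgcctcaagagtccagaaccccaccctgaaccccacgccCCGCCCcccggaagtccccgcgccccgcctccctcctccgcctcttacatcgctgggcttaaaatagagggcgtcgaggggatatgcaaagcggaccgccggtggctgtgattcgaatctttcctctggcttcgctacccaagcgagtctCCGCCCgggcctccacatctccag
ACSL1: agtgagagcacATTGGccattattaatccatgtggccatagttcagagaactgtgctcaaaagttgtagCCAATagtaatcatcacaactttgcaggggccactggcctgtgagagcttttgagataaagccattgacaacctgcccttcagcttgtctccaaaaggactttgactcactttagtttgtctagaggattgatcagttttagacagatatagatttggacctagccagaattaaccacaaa
GPIHBP1 and ANGPTL4 have G- and C-rich windows (64.8% and 65.2%) with 3 and 2 GC boxes, a motif that 45.9% of 19556 annotated promoter windows of the same length contain. ACSL1 has 2 CCAAT boxes, as 31.9% of windows have at least one, and a G and C content of 42.0%. An octamer is present in 1.24% of the 19556 windows and a TATA box in 9.77%, and neither has a match in the sequences shown. The nuclear receptor motif occurs in the windows of SLC27A1 and ACSL3 and in 12.2% of all windows, and the direct repeat occurs in 0 of the 10 windows, CD36 included, and in 0.230% of all. A match to these letters is a description of the sequence and was not tested as a binding site.

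Per kilobase of exon, the 9 genes spanned a wide range of levels in backfat. FABP4, the main fatty acid carrier of fat cells, stood highest with a mean of 4069 CPM per kb over the 15 libraries, followed by LPL (1448), FABP5 (743) and ACSL1 (332). GPIHBP1 (66.6), VLDLR (25.2) and ANGPTL4 (23.7) formed a middle range, and ACSL3 (5.22) and SLC27A1 (5.14) were the lowest. Neighbours in this order held it in at least 14 of 15 libraries, apart from the following pairs. VLDLR was over ANGPTL4 in 10 of 15 and ACSL3 over SLC27A1 in 8 of 15. The lengths used merge the exons of all RefSeq transcripts, and the order of such pairs depends on them. The curated transcript is shorter for VLDLR (2538 against 3869 bases), ACSL3 (2557 against 5462) and SLC27A1 (3292 against 5265), and equal for ANGPTL4 (1818). Levels by curated length were not computed. Unscaled, LPL alone made up 0.444% of the counts on genes in C, 0.469% in DOP and 0.376% in WCOC.

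**Figure D1:**
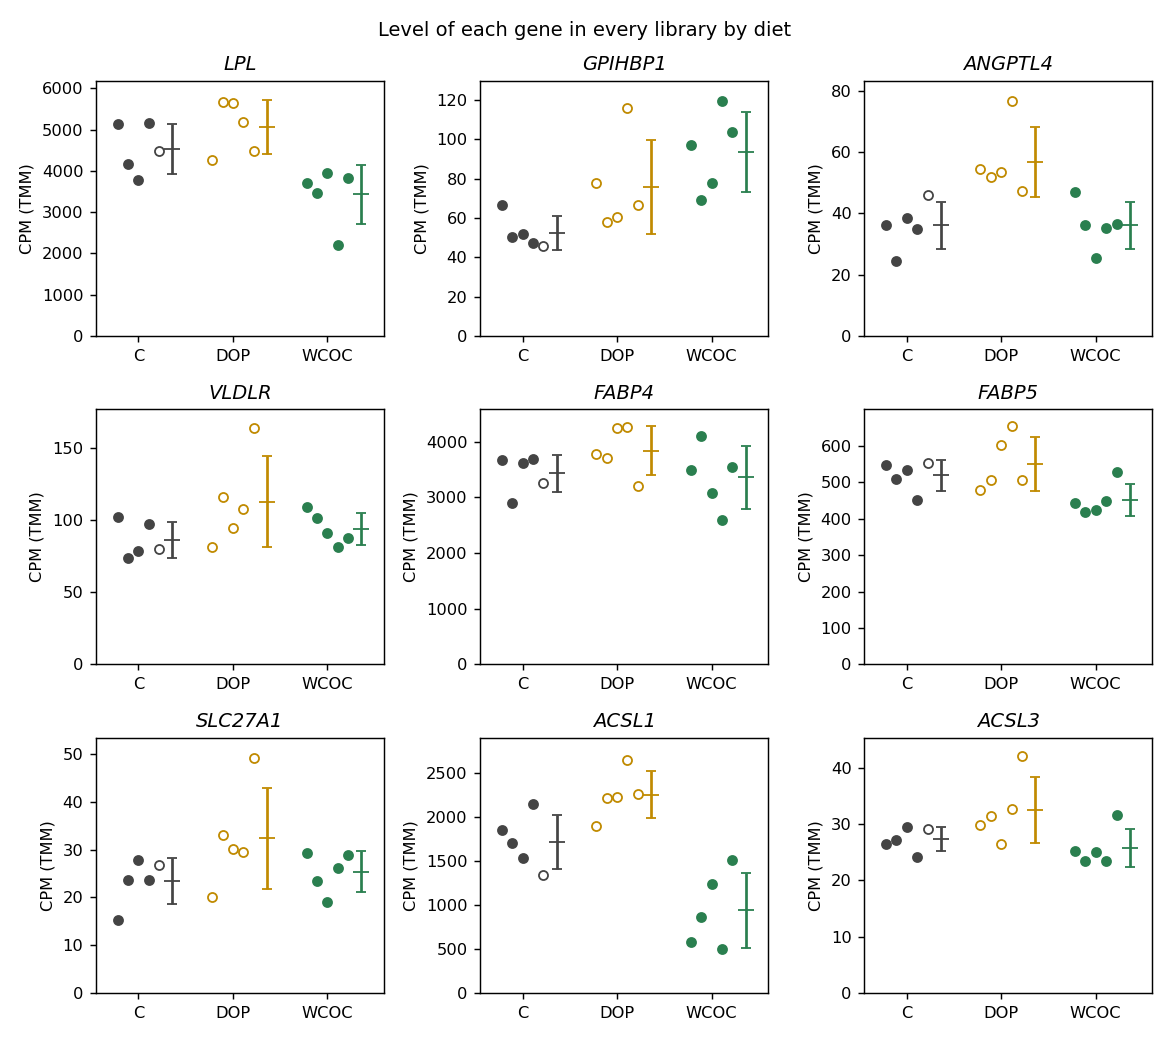
Level of each gene in CPM after TMM scaling (linear axes from 0) in every library by diet; points are pigs, filled for flow cell A and open for flow cell B, and the bars beside them are mean ± SD, n = 5. ACSL1 in WCOC (500 to 1514 CPM) lies below all DOP libraries (1904 to 2656 CPM), GPIHBP1 in WCOC lies above all controls, and ANGPTL4 in DOP lies above both other diets.

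A gene was called in a comparison when the edgeR quasi-likelihood test gave a Benjamini-Hochberg adjusted p under 0.05 over all 14918 tested genes and the log2 fold change (log2FC) was at least 0.58 in size. Between WCOC and C, 2 of the 9 genes were called, where 6.25% of all tested genes were called. GPIHBP1 was higher in WCOC (2.33% of all genes) and ACSL1 lower (3.93%). Between WCOC and DOP, 2 of 9 were called, against 7.76% of all genes, and both (ANGPTL4 and ACSL1) were lower in WCOC (5.11%). There 3 of 9 genes did not overlap between the diets (8.90% of all genes) and 5 of 9 had an unadjusted p under 0.05 (28.1%). Between DOP and C, 0 of 9 were called, with 0.764% of all genes called, 0.215% higher and 0.550% lower in DOP. In that comparison 4 of 9 had an unadjusted edgeR p under 0.05 (17.6% of all genes), DESeq2 called 1 (ANGPTL4) and limma-voom called 0. The log2FC of DOP vs. C was above 0 for 9 of 9 genes (52.2% of all tested genes; FABP5 turned to -0.00592 with flow cell as a covariate), with a median of 0.38 against 0.01 over all genes. This median was 0.22 without DOP replicate 5, the library with the most muscle marker RNA, and 0.10 without the 5 libraries with muscle markers over 1000 CPM, an alternative chosen after seeing the data. For WCOC vs. C it was above 0 for 4 of 9 (50.6% of all), with a median of -0.03 against 0.00433 over all genes. WCOC lay above DOP for 1 of 9 genes (50.1% of all), with a median log2FC of -0.34 against 0.000668 over all genes. DOP vs. C and WCOC vs. C share their control libraries and are not independent of each other. In RNA from whole tissue, fewer cells of a type and less RNA per cell cannot be told apart.

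**Figure D2:**
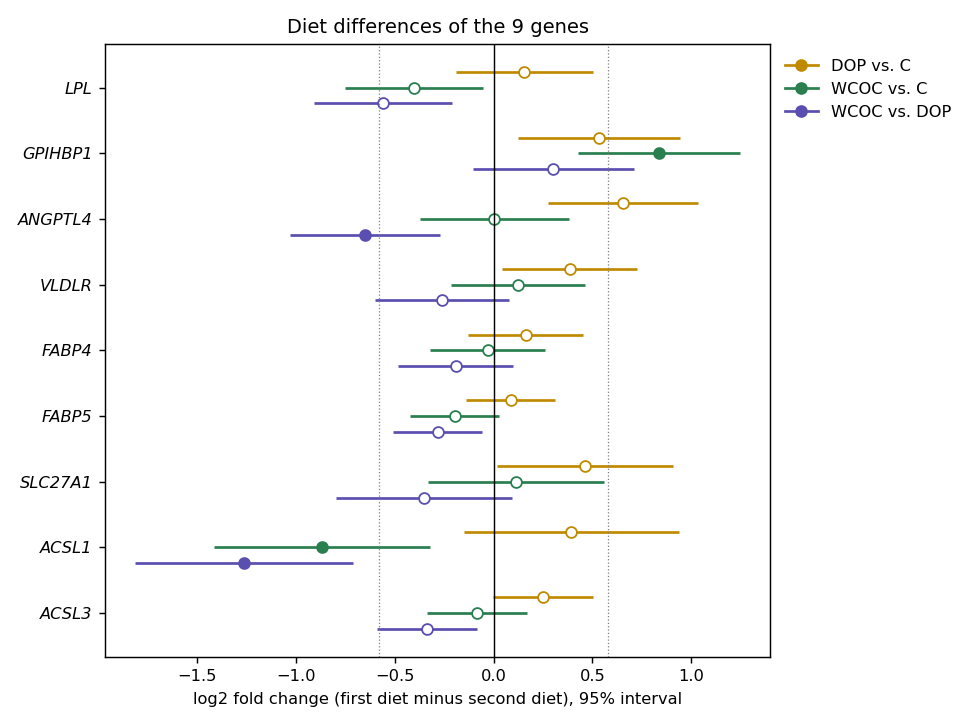
Log2FC of the 9 genes (points) with 95% intervals (lines) for each pair of diets (colours); filled points were called and dotted lines mark a log2FC of 0.58 in either direction. The called values are GPIHBP1 (0.84) and ACSL1 (-0.87) in WCOC vs. C, and ANGPTL4 (-0.65) and ACSL1 (-1.26) in WCOC vs. DOP.

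LPL, the enzyme that frees fatty acids from lipoproteins, was less abundant in WCOC than in DOP, with no overlap between the diets, although the size of the difference was just under the limit for a call. LPL in C was 5138, 4159, 3779, 5151 and 4483 CPM in replicates 1 to 5. LPL in DOP was 4273, 5683, 5652, 5194 and 4486 CPM. LPL in WCOC was 3705, 3456, 3948, 2213 and 3840 CPM. The highest WCOC pig stood below the lowest DOP pig, the controls overlapped both diets, and WCOC replicate 4 was far below the other pigs of its diet. The WCOC mean of 3432 ± 706 CPM compared with 5058 ± 653 in DOP (SD, n = 5), a log2FC of -0.56 ± 0.16 (SE; 95% interval -0.91 to -0.21; edgeR adjusted p = 0.0384). Across leave-one-out fits this adjusted p ran from 0.0341 to 0.0854, and LPL was called without DOP replicate 1 (log2FC -0.62, adjusted p = 0.0341), DOP replicate 5 (-0.60, 0.0480) or WCOC replicate 3 (-0.61, 0.0496). Over 11 other fits the adjusted p ran from 0.00455 to 0.456 and was over 0.05 in 5, among them flow cell as a covariate (log2FC -0.58, adjusted p = 0.456), only the diets compared (-0.56, 0.0779) and the 5 muscle-rich libraries left out (-0.53, 0.403). Against C the log2FC was -0.40 ± 0.16 for WCOC (adjusted p = 0.132; below the control median in 5 of 5 pigs) and 0.16 ± 0.16 for DOP (adjusted p = 0.677).

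GPIHBP1, the endothelial protein that anchors LPL in capillaries, rose in WCOC compared with C. GPIHBP1 in C was 66.8, 50.4, 51.9, 47.1 and 45.7 CPM. GPIHBP1 in DOP was 78.0, 58.2, 60.4, 116.1 and 66.6 CPM. GPIHBP1 in WCOC was 97.1, 69.4, 77.6, 119.8 and 103.8 CPM. Each WCOC pig was above each control, with the lowest WCOC value close to the highest control, and DOP spread across both ranges. Groups that did not overlap were found for 7.62% of all tested genes in this comparison. The means were 93.5 ± 20.3 CPM in WCOC and 52.4 ± 8.45 in C, a 1.79-fold difference (log2FC 0.84 ± 0.19, 95% interval 0.42 to 1.25, edgeR adjusted p = 0.0162). This call was made in 10 of 10 leave-one-out fits (adjusted p 0.00962 to 0.0433) and 12 of 12 other fits (0.000787 to 0.0401), flow cell A alone among them (log2FC 0.78, adjusted p = 0.0320). DOP lay between, at 75.9 ± 23.8 CPM, with a log2FC of 0.53 ± 0.19 against C (adjusted p = 0.174). WCOC and DOP differed by 0.30 ± 0.19 (95% interval -0.11 to 0.71, adjusted p = 0.329). DOP replicate 4 moved both values, and without it the log2FC was 0.33 for DOP vs. C (adjusted p = 0.329) and 0.50 for WCOC vs. DOP (adjusted p = 0.0654).

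Markers of the capillary endothelium, the cells that make GPIHBP1, were measured beside it. The 9 matched markers, none at 0, summed to 1046 to 1320 CPM in C, 1364 to 1751 in DOP and 1172 to 1891 in WCOC, so that DOP lay above all controls. In WCOC vs. C, 2 of the 9 were called higher (2.33% of all genes), CLDN5 of tight junctions (log2FC 0.75) and the transcription factor ERG (0.64), and 9 of 9 had a log2FC above 0, with a median of 0.42. In DOP vs. C 0 of 9 were called by edgeR (0.764% of all genes), 5 had an unadjusted p under 0.05, and the median was 0.36 with 8 of 9 above 0 (TEK was at -0.06). Per 100 CPM of these markers, GPIHBP1 was 3.87 to 5.06 CPM in C, 4.18 to 6.74 in DOP and 4.74 to 6.86 in WCOC, where 4 of 5 WCOC pigs were above all controls. The part of the endothelial markers in the GPIHBP1 difference was not tested further.

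ANGPTL4, the secreted inhibitor of LPL that fasting is known to induce in fat, was highest in DOP and called against WCOC but not against C. ANGPTL4 in C was 36.4, 24.6, 38.6, 34.8 and 46.1 CPM. ANGPTL4 in DOP was 54.6, 52.0, 53.5, 76.7 and 47.4 CPM. ANGPTL4 in WCOC was 47.1, 36.2, 25.6, 35.4 and 36.6 CPM. Every DOP pig was above every pig of the other diets, by a narrow margin, while C and WCOC covered the same range. The nearest control was replicate 5 (46.1 CPM), the only control on the flow cell of the DOP libraries. DOP (56.8 ± 11.4 CPM) and WCOC (36.2 ± 7.63) differed by a log2FC of -0.65 ± 0.18 for WCOC vs. DOP (95% interval -1.03 to -0.27, edgeR adjusted p = 0.0303). This contrast is also the test of whether the changes of the diets against C differed. The call was lost in 4 of 10 leave-one-out fits, without DOP replicate 4 (adjusted p = 0.0688), WCOC replicate 3 (0.0628), WCOC replicate 4 (0.0666) or WCOC replicate 5 (0.0566). With flow cell as a covariate, which rests on that single control library, the log2FC was -0.20 (adjusted p = 0.821), and without the 5 muscle-rich libraries it was -0.58 (adjusted p = 0.349). The call was lost in 3 of 11 such fits, over which the adjusted p ran from 0.00642 to 0.821. Against C (36.1 ± 7.73 CPM), DOP had a log2FC of 0.65 ± 0.18 (95% interval 0.28 to 1.03, edgeR adjusted p = 0.0944), and groups without overlap made up 3.47% of all genes in that comparison. DESeq2 called it (adjusted p = 0.0200), and over the alternative fits the adjusted p ran up to 0.863. WCOC vs. C was 0.00286 ± 0.18 (95% interval -0.37 to 0.38, adjusted p = 0.995).

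Ratios of counts within a library do not depend on how libraries were scaled. GPIHBP1 counts per 100 LPL counts were 0.914 to 1.37 in C, 1.02 to 2.23 in DOP and 1.97 to 5.41 in WCOC. All WCOC pigs were above all controls, and WCOC replicate 4, with the lowest LPL and the highest GPIHBP1, had the highest ratio. ANGPTL4 counts per 100 LPL counts were 0.592 to 1.03 in C, 0.914 to 1.48 in DOP and 0.648 to 1.60 in WCOC, which overlap.

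**Figure D3:**
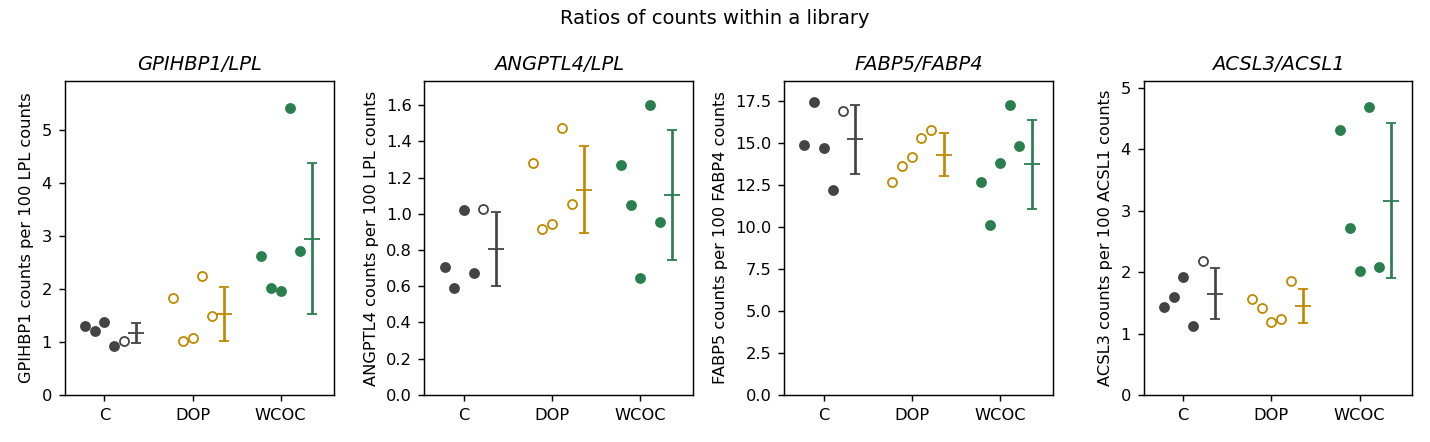
Counts of a gene per 100 counts of another in the same library, by diet (linear axes from 0); points are pigs, filled for flow cell A and open for flow cell B, and bars are mean ± SD, n = 5. GPIHBP1/LPL in WCOC (1.97 to 5.41) lies above all controls, ACSL3/ACSL1 in WCOC (2.02 to 4.69) lies above all DOP libraries, and the other ratios overlap between diets.

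VLDLR, the lipoprotein receptor, was not called in any comparison. VLDLR in C was 101.9, 73.6, 78.3, 97.5 and 80.2 CPM. VLDLR in DOP was 81.3, 116.0, 94.4, 107.8 and 163.6 CPM. VLDLR in WCOC was 108.8, 101.0, 91.1, 81.1 and 87.5 CPM. The diets overlapped, and the highest value was that of DOP replicate 5, the library with the most skeletal muscle marker RNA. DOP vs. C had a log2FC of 0.38 ± 0.16 (adjusted p = 0.233), which was 0.21 without DOP replicate 5 and 0.06 without the 5 libraries high in muscle markers, a choice made after seeing the data that keeps 3 C and 2 DOP libraries. WCOC differed from C by 0.12 ± 0.16 (adjusted p = 0.666) and from DOP by -0.26 ± 0.16 (adjusted p = 0.310).

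SLC27A1, a fatty acid transport protein with acyl-CoA synthetase activity, is known for its high level in skeletal muscle. SLC27A1 in C was 15.4, 23.6, 27.7, 23.7 and 26.8 CPM. SLC27A1 in DOP was 20.04, 33.1, 30.1, 29.4 and 49.1 CPM. SLC27A1 in WCOC was 29.3, 23.4, 18.97, 26.2 and 28.9 CPM. Again DOP replicate 5 was the highest library and the diets overlapped, with control replicate 1 well below the other controls. The log2FC of DOP vs. C was 0.46 ± 0.21 (adjusted p = 0.264), 0.26 without DOP replicate 5 and 0.01 without the 5 libraries high in muscle markers. WCOC differed from C by 0.11 ± 0.21 (adjusted p = 0.774) and from DOP by -0.35 ± 0.21 (adjusted p = 0.294).

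FABP4 and FABP5, the fatty acid binding proteins of adipocytes and macrophages, had coefficients of variation of 8.04% to 16.9% within diets. FABP4 in C was 3670, 2906, 3625, 3686 and 3266 CPM. FABP4 in DOP was 3785, 3712, 4241, 4260 and 3201 CPM. FABP4 in WCOC was 3489, 4107, 3075, 2589 and 3549 CPM. The ranges of the 3 diets overlapped widely. The log2FC of FABP4 was 0.16 ± 0.14 for DOP vs. C (adjusted p = 0.586), -0.03 ± 0.14 for WCOC vs. C (0.918) and -0.19 ± 0.14 for WCOC vs. DOP (0.392). The 95% intervals of these differences were -0.13 to 0.45, -0.32 to 0.26 and -0.48 to 0.10.

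FABP5, the less abundant of the pair, was not called either. FABP5 in C was 547, 507, 534, 450 and 552 CPM. FABP5 in DOP was 480, 507, 603, 653 and 506 CPM. FABP5 in WCOC was 442, 417, 425, 448 and 527 CPM. In WCOC 4 of 5 pigs were below all controls and 4 of 5 below all DOP pigs, and replicate 5 was within both ranges. The log2FC was -0.28 ± 0.11 for WCOC vs. DOP (adjusted p = 0.0937), -0.20 ± 0.11 for WCOC vs. C (adjusted p = 0.248) and 0.09 ± 0.11 for DOP vs. C (adjusted p = 0.732). FABP5 counts per 100 FABP4 counts were 12.2 to 17.5 in C, 12.7 to 15.8 in DOP and 10.1 to 17.3 in WCOC, with no separation of the diets. FABP genes are related in sequence, and how read pairs matching more than 1 of them were counted is not given in the sources used here.

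ACSL1, the main long-chain acyl-CoA synthetase of fat cells, showed the lowest log2FC of the 9 genes and fell in WCOC against both other diets. ACSL1 in C was 1854, 1704, 1535, 2150 and 1338 CPM. ACSL1 in DOP was 1904, 2214, 2230, 2656 and 2267 CPM. ACSL1 in WCOC was 585, 862, 1237, 500 and 1514 CPM. All WCOC pigs were below all DOP pigs and 4 of 5 were below all controls, replicate 5 being the exception. The WCOC pigs also differed most among themselves, with a coefficient of variation of 45.9% compared with 18.02% in C and 11.9% in DOP. WCOC (939 ± 431 CPM) had a log2FC of -1.26 ± 0.26 against DOP (2254 ± 268; 95% interval -1.81 to -0.71, edgeR adjusted p = 0.00872), so that DOP was 2.40-fold higher. This call was made in 10 of 10 leave-one-out fits (adjusted p 0.00411 to 0.0239) and in 9 of 11 other fits. It was lost with flow cell as a covariate (log2FC -1.70, adjusted p = 0.293) and without the 5 libraries high in muscle markers (-1.14, 0.241), where 2 DOP libraries remain, and over these 11 fits the adjusted p started at 2.68e-05.

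Compared with C (1716 ± 309 CPM), ACSL1 in WCOC had a log2FC of -0.87 ± 0.26 (95% interval -1.42 to -0.32, edgeR adjusted p = 0.0442), just past the threshold. The call was lost in 8 of 10 leave-one-out fits, where the log2FC ranged from -1.11 to -0.71 over all 10. The adjusted p was 0.0773, 0.0653, 0.0700, 0.0910 and 0.0514 without C replicates 1 to 5, and 0.111, 0.0631 and 0.0867 without WCOC replicates 1, 2 and 4. On flow cell A alone the log2FC was -0.96 (adjusted p = 0.0965), and DESeq2 gave -0.88 (0.00620), the lowest adjusted p of 12 alternatives, of which the highest was 0.177. DOP had a log2FC of 0.39 ± 0.25 against C (95% interval -0.15 to 0.94, adjusted p = 0.457), with 4 of 5 pigs above all controls and 5 of 5 above the control median. In WCOC vs. C 1 of the 6 adipocyte markers was called higher (ADIPOQ, log2FC 0.66; 2.33% of all genes), 5 of 6 were above 0, CIDEC was at -0.39 (adjusted p = 0.211), and their sum in each WCOC pig was above all controls. The macrophage markers, with 6 of 12 called lower there (3.93% of all genes), are given above, and the part of either list in the ACSL1 difference was not tested.

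ACSL3, an acyl-CoA synthetase of the endoplasmic reticulum and lipid droplets, was a low-level gene here and was not called. ACSL3 in C was 26.5, 27.3, 29.5, 24.2 and 29.2 CPM. ACSL3 in DOP was 29.9, 31.4, 26.4, 32.7 and 42.2 CPM. ACSL3 in WCOC was 25.2, 23.4, 25.04, 23.4 and 31.7 CPM. WCOC and C overlapped, DOP replicate 5 was again the highest library, and WCOC replicate 5 was apart from the rest of its diet. The log2FC was -0.34 ± 0.12 for WCOC vs. DOP (adjusted p = 0.0777), -0.09 ± 0.12 for WCOC vs. C (adjusted p = 0.686) and 0.25 ± 0.12 for DOP vs. C (adjusted p = 0.291), the last being 0.14 without DOP replicate 5 and 0.06 without the 5 libraries high in muscle markers. ACSL3 counts per 100 ACSL1 counts were 1.13 to 2.18 in C, 1.18 to 1.86 in DOP and 2.02 to 4.69 in WCOC, so that WCOC lay above all DOP pigs and overlapped control replicate 5.

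Between pigs of the same diet the genes were mostly weakly related. After log2 CPM were centred within diets, the 36 pairs had a median Pearson r of 0.14 over 15 libraries, 24 of them positive. The highest was LPL with ACSL1 (0.65), followed by LPL with FABP4 (0.59) and SLC27A1 with ACSL3 (0.58), and the lowest was ANGPTL4 with ACSL1 (-0.30). LPL and its anchor GPIHBP1 had an r of -0.29. These values are descriptions: the points share the tissue piece, its mixture of cells and the library scaling.

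**Figure D4:**
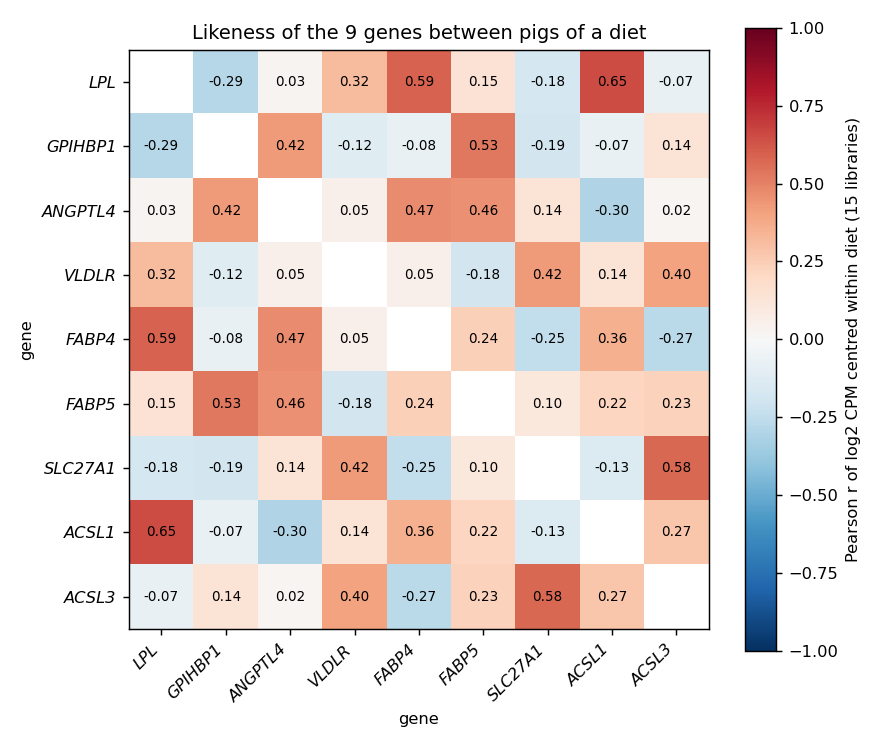
Pearson r between the 9 genes across 15 libraries after centring log2 CPM within each diet; red is positive and blue negative. LPL with ACSL1 (0.65) and LPL with FABP4 (0.59) have the highest values, and GPIHBP1 with LPL is negative (-0.29).

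Among 11133 genes with a symbol and a mean of at least 1 CPM, the pattern most like that of LPL was HSD17B4, a peroxisomal beta-oxidation enzyme (r = 0.94, Spearman 0.90). Without the pigs farthest from the median of LPL (control replicate 3 and WCOC replicate 4) this r was 0.87. GPIHBP1 was most like DCHS1 (0.90) and HEY1, a Notch target of endothelial cells (0.89). ACSL1 was most like OTUD7A (0.90) and SLC2A4, the insulin-responsive glucose transporter (0.86). ANGPTL4 was nearest DAXX (0.87) and NIBAN2 (0.87), and VLDLR was nearest ATG9A (0.94) and COQ8A (0.93). FABP4 was nearest FOLR2 (0.92), a folate receptor of macrophages, and UFC1 (0.91), and FABP5 was nearest ACE (0.79) and CAMK1 (0.78), the lowest of these values. SLC27A1 was nearest SLMAP (0.89) and ABCA5 (0.84), and ACSL3 was nearest PI15 (0.92) and RCSD1 (0.88). Spearman values for these pairs ranged from 0.74 to 0.94, and Pearson values without the 2 farthest libraries from 0.71 to 0.90. Each is among the top 2 of 11133 correlations over only 15 libraries.

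Of 72 further genes of lipoprotein hydrolysis, uptake and activation, 61 were matched and 52 tested. In DOP vs. C 1 was called (1.92%), lower in DOP. In WCOC vs. C 7 were called (13.5%), all lower in WCOC, and the median log2FC of the 52 was -0.19. In WCOC vs. DOP 7 were called (13.5%), 6 lower and 1 higher in WCOC, with a median of -0.15. WCOC and DOP share no flow cell. With flow cell as a covariate 1 gene of all tested was called in that comparison, so at most 1 of these 7 calls was kept. The values of the 7 genes in the alternative fits were not recorded. The shares called over all genes were those given above for these comparisons.

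Among 8 genes of LPL maturation and regulation, LIPG, the endothelial lipase related to LPL, was called lower in both diets with olive by-products. It was 35.1 ± 6.01 CPM in C, 9.72 ± 2.65 in DOP (log2FC -1.85 ± 0.40, adjusted p = 0.0452) and 13.97 ± 8.64 in WCOC (-1.33 ± 0.39, adjusted p = 0.0446). Both LIPG calls were just past the threshold, and its values in the alternative fits were not recorded. Its DOP call was lost wherever 0 genes were called in DOP vs. C. That was so without C replicates 3 or 5 or DOP replicates 2 or 4, with the replicate block, and without the muscle-rich libraries. ANGPTL8, a feeding-induced regulator of LPL, was near the detection limit and fell from 2.08 ± 1.62 CPM in C to 0.319 ± 0.231 in WCOC (log2FC -2.69 ± 0.72, adjusted p = 0.0302). APOE, the most abundant of the list, was 3106 CPM in C, with log2FC of 0.01 in each comparison. LMF1, the chaperone that folds LPL, differed by -0.25 between WCOC and DOP (adjusted p = 0.0411), under the size limit. In total 1 of 8 was called in DOP vs. C, 2 in WCOC vs. C and 0 in WCOC vs. DOP (1 with an unadjusted p under 0.05).

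Among lipoprotein receptors, SCARB1, the receptor for high density lipoproteins, was the most abundant at 275 CPM in C and was not called. Its log2FC was 0.34 for DOP vs. C (adjusted p = 0.164), 0.05 for WCOC vs. C (0.825) and -0.29 for WCOC vs. DOP (0.128). The 6 receptors tested had a median log2FC of -0.15 in DOP vs. C, where SCARB1 was the only 1 above 0. Their median was -0.33 in WCOC vs. C and -0.15 in WCOC vs. DOP, each with 2 of 6 above 0. Not all genes and calls of this list are reported here.

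Of 10 fatty acid transporter, caveolar and CD36-acylation genes, SLC27A6, a fatty acid transport protein, was called lower in WCOC than in C (log2FC -0.71, adjusted p = 0.0347). GOT2, the mitochondrial aspartate aminotransferase also described as a plasma membrane fatty acid binding protein, fell against C (-0.61 ± 0.16, adjusted p = 0.0306) and DOP (-0.89 ± 0.16, adjusted p = 0.00498), with 139 ± 21.8 CPM in WCOC. LYPLA1, which removes palmitate from proteins, fell against DOP (-0.60 ± 0.09, adjusted p = 0.00200). Against C its log2FC in WCOC was -0.45 ± 0.09 (adjusted p = 0.00819), under the size limit. The caveolar genes CAV1, CAV2 and CAVIN1 were not called. CAV1 had a log2FC of 0.31 for WCOC vs. C (edgeR adjusted p = 0.0851) and 0.20 for WCOC vs. DOP (0.254). CAVIN1 had 0.21 (0.22) and 0.33 (0.0547), and CAV2 had -0.03 and -0.23.

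FABP3, the heart and muscle type fatty acid binding protein, was lower in WCOC at 522 ± 234 CPM than in C (1197 ± 410; log2FC -1.20 ± 0.30, adjusted p = 0.0219) and DOP (1338 ± 158; -1.36 ± 0.30, adjusted p = 0.0119). FABP7, at 1.34 CPM in WCOC, was the single gene of the lists called higher (log2FC 1.02 against DOP, adjusted p = 0.0469). Of the 6 muscle markers, 4 were called lower in WCOC than in DOP (5.11% of all genes), with a median log2FC of -5.88. Between WCOC and C 0 were called by edgeR (0 with an unadjusted p under 0.05). There too 6 of 6 muscle markers had a log2FC below 0, with a median of -2.38. Their part in the FABP3 difference was not tested.

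Of 10 other acyl-CoA synthetases, 0 were called by edgeR in DOP vs. C and WCOC vs. C (3 and 4 with an unadjusted p under 0.05) and 3 in WCOC vs. DOP, all lower in WCOC. ACSS2, which makes acetyl-CoA from acetate, was 577 ± 184 CPM in WCOC and 979 ± 116 in DOP (log2FC -0.76 ± 0.23, adjusted p = 0.0424). The medium-chain synthetases ACSM3 (log2FC -1.45, adjusted p = 0.00872) and ACSM5 (-3.05, adjusted p = 0.0112) were low, with ACSM5 at 0.641 ± 0.0452 CPM in WCOC and a wide 5.33 ± 6.57 in DOP. ACSL4 and ACSL5, the long-chain relatives of ACSL1, were not called, with log2FC of -0.01 and 0.16 for WCOC vs. DOP. Of 5 acyl-CoA thioesterases, which reverse the activation, ACOT7 alone was called, lower in WCOC than in C (-0.97 ± 0.29, adjusted p = 0.0438).

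Of 9 PPAR and endothelial regulators of uptake, 0 were called by edgeR in any comparison (2 had an unadjusted p under 0.05 in DOP vs. C, 3 in WCOC vs. C and 1 in WCOC vs. DOP). PPARG, the receptor that drives fat cell differentiation, had log2FC of 0.06, 0.16 and 0.10 in these comparisons. The most abundant of the list was RXRA, the partner of the PPAR receptors, at 419 CPM in C. FLT1, an endothelial receptor, had an adjusted p of 0.0484 in WCOC vs. C with a log2FC of 0.43.

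**Figure D5:**
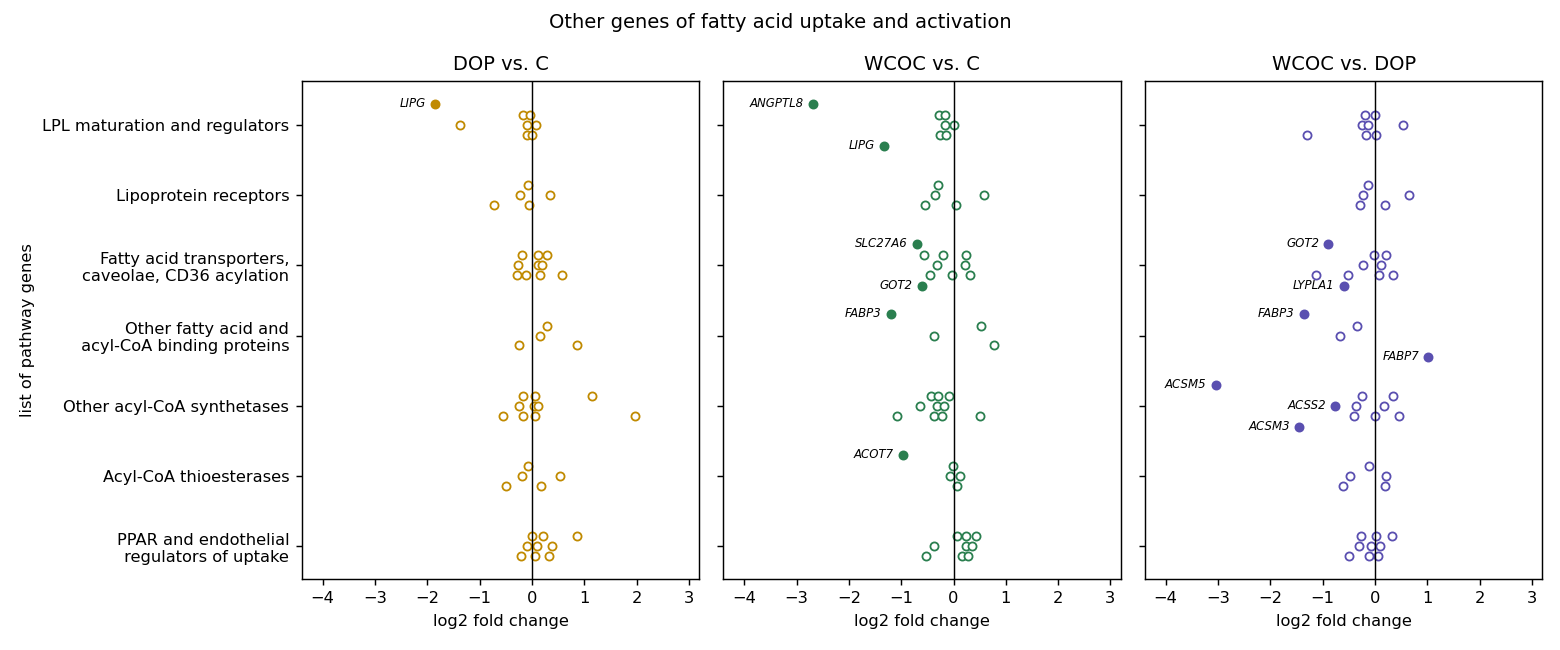
Log2FC of further pathway genes by list (rows) in the 3 comparisons (panels); each point is a gene, filled and named where it was called. In WCOC vs. C all called genes shown are lower in WCOC, ANGPTL8 having the lowest log2FC (-2.69), and in WCOC vs. DOP FABP7 (1.02) is the only one higher.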

How the data were processed

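Backfat RNA of 15 pigs was sequenced as paired-end libraries. Without trimming, the authors aligned the reads to Sscrofa11.1 by HISAT2, set as strand-specific, and HTSeq-count gave the read pairs per gene. The deposited files hold these raw counts for each pig. Which annotation release and strand option the counting used is not given in the sources used here. Summary lines for read pairs not counted took 23.4% to 32.8% of a library and stayed out of library sizes and tests. Diet and replicate number came from the labels, and flow cell from the run identifiers.

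The test was the quasi-likelihood test of edgeR 4.0.16 (R 4.3.3) after filterByExpr by diet (14918 genes, 11955 with a symbol) and TMM scaling. All 15 libraries entered 1 fit with the diets as groups (common dispersion 0.0814). Tests were two-sided, and p-values were adjusted over the tested genes by the Benjamini-Hochberg method. CPM are TMM-scaled, mean ± SD, with a prior count of 1 before logs. With 5 pigs per diet the p-values measure the spread between pigs, and the depth keeps counting error of these genes small beside it. Replicates of a diet were not duplicates (lowest median chi-square of a pair 3.76 against 0.455 for sampling noise). The workflow was tested on simulated data.

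Alternatives were DESeq2 1.42.0, its size factors, limma-voom (limma 3.58.1), TMM without the muscle list and 50 top genes, robust fitting, other filters, only the diets compared, flow cell as covariate or flow cell A alone, the replicate number as a block, no log2FC limit, and each library left out. Leaving out libraries with muscle markers above 1000 CPM was added after seeing the data. Levels between genes are per kilobase of merged RefSeq exons. Gene symbols came from a reference table. A few genes and 1 promoter sequence are not reported here. The genes and all lists were chosen with earlier results of these data known, the lists from general knowledge; the genes named are the 9 matched ones, the 2 genes most like each, and the called genes of each pathway list (at most 4 per comparison) or, in a list with none called, its most abundant gene. APOE, LMF1, SCARB1, CAV1, CAV2, CAVIN1, ACSL4, ACSL5, PPARG, FLT1 and single cell type markers were named after their values were seen. Sequences are RefSeq's for Sscrofa11.1. Figures were made with Python 3.11.15 and matplotlib 3.10.9.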

Additional observations from a re-analysis of the deposited data

Results flagged for a closer look

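Within diets of 5 pigs, 39 sets of values (log2 CPM of the 9 genes and log ratios) were checked for a lone sample whose gap to its nearest neighbour exceeded 0.71 of the whole range, and chance gives about 1 in 20 such sets. In 3 sets a sample stood apart: LPL in WCOC (gap 0.770 of the range, replicate 4 low at 2213 CPM), SLC27A1 in C (0.725, replicate 1 low at 15.4 CPM) and ACSL3 in WCOC (0.750, replicate 5 high at 31.7 CPM). Without WCOC replicate 4 the log2FC of LPL for WCOC vs. C moved from -0.40 to -0.28, and without control replicate 1 that of SLC27A1 moved from 0.11 to -0.01.

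The changes against C differed between the diets for 2 genes by a test of the difference itself, the contrast WCOC vs. DOP. The difference was -0.65 for ANGPTL4 (log2FC 0.65 in DOP and 0.00286 in WCOC) and -1.26 for ACSL1 (0.39 in DOP and -0.87 in WCOC). Diet and flow cell cannot be told apart in this contrast except through control replicate 5.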

How the results depend on the processing

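Leave-one-out fits gave the same direction and side of the threshold for 246 values, another direction for 9, a call gained for 3 and a call lost for 12. In the other alternatives these numbers were 286, 8, 1 and 11. The causes of the changes below were not tested.

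Over all genes, the calls in DOP vs. C (114) were 518 with DESeq2, 19 with limma-voom, 2 with only the diets compared and 0 without the muscle-rich libraries (857 genes with an unadjusted p under 0.05), and leaving out 1 library gave 0 to 200 (0 without C replicates 3 or 5 or DOP replicates 2 or 4, 1 without DOP replicate 5, 4 without DOP replicate 3, 46 without C replicate 4, and 200 without C replicate 1). In WCOC vs. C (933) they were 486 on flow cell A alone, 1493 with no log2FC limit and 354 without the muscle-rich libraries, and 468 to 1163 in leave-one-out fits (468, 596 and 532 without WCOC replicates 1 and 4 and C replicate 3). In WCOC vs. DOP (1158) they were 1 with flow cell as a covariate, 1842 with no log2FC limit and 92 without the muscle-rich libraries, and 639 to 1291 in leave-one-out fits (731 and 699 without DOP replicates 2 and 5, 639 and 700 without WCOC replicates 1 and 4).

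Of the 9 genes, DESeq2 called 1 in DOP vs. C. In WCOC vs. C 1 in place of 2 was called on flow cell A alone, with flow cell as a covariate, with no filter, with only the diets compared and without the muscle-rich libraries, and 1 to 2 in leave-one-out fits, ACSL1 being the one lost. In WCOC vs. DOP 0 were called with flow cell as a covariate or without the muscle-rich libraries, and 1 to 3 in leave-one-out fits.

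Replicate numbers do not pair the pigs: same-numbered libraries correlated over 0.1 in 0, 1 and 2 of 5 pairs. With the replicate block, 0 genes were called in DOP vs. C (1950 with an unadjusted p under 0.05), 473 in WCOC vs. C and 561 in WCOC vs. DOP, and of the 9 genes 0, 1 and 1 (adjusted p = 0.0898 for ACSL1 in WCOC vs. C and 0.0625 for ANGPTL4 in WCOC vs. DOP).

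Directions changed for ANGPTL4 in WCOC vs. C (-0.00321 with DESeq2, -0.00219 with its size factors, -0.000336 with limma-voom, -0.00360 with only the diets compared, and -0.11 to 0.11 in leave-one-out fits), FABP4 in WCOC vs. C (0.0248 without the muscle-rich libraries, -0.120 to 0.0559 in leave-one-out fits), FABP5 in DOP vs. C (-0.00592 with flow cell as a covariate), and SLC27A1 in WCOC vs. C (-0.0142 to 0.1999 in leave-one-out fits). In WCOC vs. DOP, SLC27A1 (-0.35) and VLDLR (-0.26) turned to 0.0146 and 0.0947 without the muscle-rich libraries. Another scaling moved the median log2FC of all genes by at most 0.01.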
